A study of Gallus gallus with 12 samples.

Results

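The chorioallantoic membrane (CAM) of the chick embryo at E14 was set against the CAM at E5, the last of the stages profiled against the first. At E5 the study uses the name CAM for the allantoic vesicle. Stage and the tissue make-up of the samples therefore cannot be told apart here. The groups were taken from the stage in the sample labels, 3 arrays at E14 (embryonic day 14, Hamburger and Hamilton stage 40) and 3 arrays at E5 (embryonic day 5, stage 26), which is 6 of the 12 arrays of the series. The other 6 arrays were 3 at E7 and 3 at E10. Every array carried RNA of a whole CAM of 1 untreated embryo, hybridized to an Affymetrix chicken GeneChip, and strain and sex of the embryos were not given in the sources used here. Of 38535 probe sets, the 96 controls were left out and 38439 were compared.

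The CAM arises where the allantois, a sac that grows out of the hindgut and is lined by endoderm, meets the chorion, whose outer face is an ectodermal epithelium, and fuses with it. The mesoderm between the epithelia carries a capillary bed that comes to lie beneath the eggshell and serves as the gas exchange organ of the embryo. The chorionic epithelium also takes calcium from the shell, and the allantoic epithelium recovers salt and water from stored urine.

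A signal is the brightness of a probe set in arbitrary units on a linear scale, scaled by the authors over each array, so that signals can be compared between arrays but not between genes. Fold changes are given as log2 of E14 over E5 with their standard error (SE), and "rose" and "fell" stand for probe sets called by limma, at an adjusted p under 0.05 over all 38439 probe sets and a fold over 2. Median signals were 29.9 to 33.6 on E14 arrays and 24.4 to 28.7 on E5 arrays. Pairs of arrays correlated with 0.8445 to 0.851 within E14, 0.885 to 0.9083 within E5 and 0.8003 to 0.8224 across these stages (log2 signals over all probe sets). The 3′ to 5′ ratio of the actin controls, which increases with RNA breakdown or incomplete copying, was 2.21 to 3.43 in E14 CAMs and 1.26 to 1.503 in E5 CAMs. The GAPDH ratio was 1.19 to 1.295 in E14 CAMs and 0.921 to 0.981 in E5 CAMs. No E14 ratio lay within the E5 range, so that stage and this ratio cannot be fully told apart. HINTW, which lies on the W chromosome that only hens carry, was high in E14 replicates 1 and 3 and in E5 replicate 3. It was also high in E10 replicates 1, 2 and 3 and in E7 replicate 2. E7 replicate 3 stood apart with a median signal of 48.6.

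The E14 CAM differed from the E5 CAM in 13.2% of the probe sets. Limma called 2682 probe sets higher at E14 (6.98%) and 2382 lower (6.2%), and 10384 had an unadjusted p under 0.05. All 3 E14 signals lay above all 3 E5 signals in 7543 probe sets (19.6%) and below them in 5699 (14.8%). Of the probe sets called, 2628 of the higher and 2330 of the lower ones showed no overlap between the stages. On the deposited scale, with no floor on dim signals, the size of the change was larger on the higher side. This size was not compared under other scalings. The fold was over 4 in 1197 higher and 697 lower probe sets and over 16 in 190 higher and 46 lower ones, and the median size on the log2 scale was 1.87 and 1.58. Calls were rare among dim probe sets, with 0.688% called where the higher stage mean was under 20 and 37.8% where it was over 500. The balance between the directions depended on scaling. With the median of every array set equal, 1579 probe sets were higher and 2918 lower. Then 35.1% of the calls were higher instead of 53.0%, and the median of all log2 fold changes was -0.09 instead of 0.20. That setting also rescaled E7 replicate 3, the array with a median signal of 48.6. The part of that array in the calls lost under equal medians, here and below, was not tested. With quantile normalization, which makes the whole distribution of signals equal between arrays, 2086 probe sets were higher and 2393 lower. There 46.6% of the calls were higher, and the median was -0.01. With the actin ratio as a covariate, 1574 were higher and 1062 lower, of which 1171 and 809 were also called without it. By the brightest probe set of each of 13009 named genes, 10.5% were higher and 9.33% lower, with a median log2 fold change of 0.12.

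**Figure D1:**
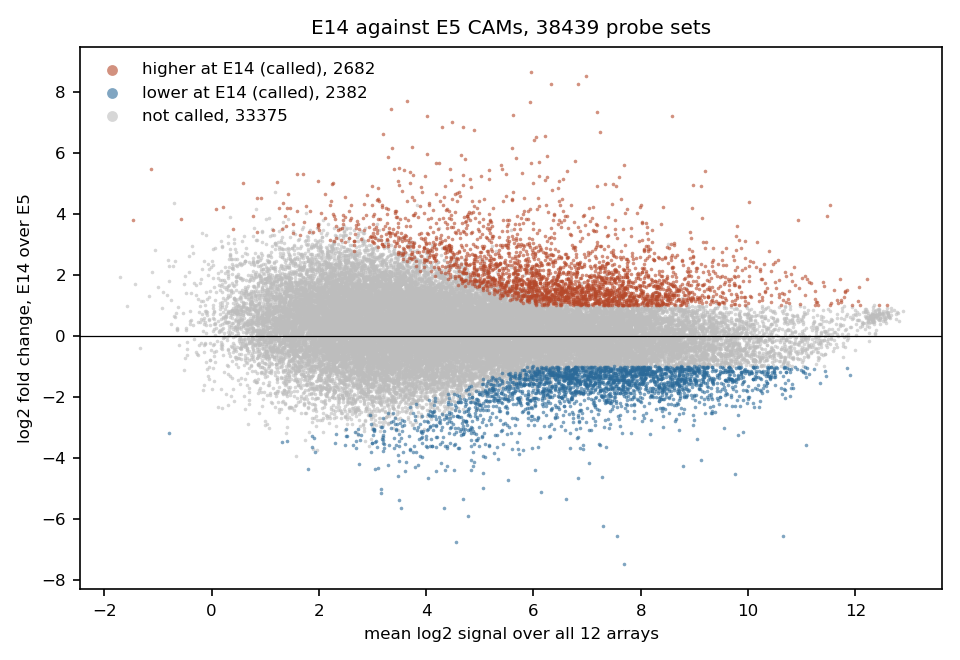
Each point is 1 of 38439 probe sets, with its mean log2 signal over all 12 arrays on the horizontal axis and its log2 fold change, E14 over E5, on the vertical axis. The 2682 higher calls reach further from 0 than the 2382 lower calls, and at low mean signal most points are not called.

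The 15 genes with the largest increase, ranked with signals under 20 set to 20, are described first. They and the 15 largest decreases were picked among called genes whose E14 and E5 signals did not overlap. Separation of the stages in them follows from that choice. LOC770450, a locus with no gene name in the annotation, had signals of 4234, 6229.7 and 3285 in the E14 CAMs and of 6.26, 22.2 and 9.14 in the E5 CAMs (log2 fold change 8.67, SE 0.47, adjusted p = 1.85e-09). AVD, the biotin-binding egg protein avidin, had 6041, 7032 and 3649.8 at E14 and 35.6, 45.6 and 21.4 at E5 (7.36, SE 0.59, adjusted p = 9.9e-08). No E5 signal of either gene came near an E14 signal. CATH1, a cathelicidin, one of the antimicrobial peptides of innate immunity, had 1856, 525 and 1793 at E14 and 15.3, 20.05 and 27.2 at E5 (5.89, SE 0.85, adjusted p = 7.07e-05), with the lowest E14 signal in replicate 2. S100A12, a calcium-binding protein that myeloid cells release, had 1201, 2669 and 3028 at E14 and 36.5, 71.9 and 30.7 at E5 (5.63, SE 0.39, adjusted p = 2.48e-08). The interferon-induced guanylate-binding protein GBP had 5308, 3549 and 3808 at E14 and 25.2, 25.1 and 35.5 at E5 (7.203, SE 0.62, adjusted p = 2.13e-07). Lack of overlap between the stages was a condition of choice for all of them. The MHC class II β chain BLB1, which presents antigen to T cells, rose by 5.09 (SE 0.63).

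SLC15A1, the peptide carrier best known from the gut, had 636, 1653 and 642 at E14 and 2.19, 18.7 and 4.83 at E5 (7.24, SE 0.82, adjusted p = 5.6e-06). CA2, the carbonic anhydrase that red cells and acid-secreting cells use to interconvert carbon dioxide and bicarbonate, had 5083, 4465 and 3809.9 at E14 and 107, 88.8 and 113 at E5 (5.43, SE 0.57, adjusted p = 2.21e-06). RHAG, the Rh-associated glycoprotein of the red cell membrane, had 1245, 965 and 755 at E14 and 1.497, 1.57 and 7.62 at E5 (8.53, SE 0.51, adjusted p = 5.17e-09). The E5 signals of RHAG were all under 20. CLEC3B, the secreted lectin tetranectin, had 965, 835 and 759.6 at E14 and 4.48, 1.54 and 10.4 at E5 (7.68, SE 0.61, adjusted p = 9.49e-08). MSLN, mesothelin, a surface protein of mesothelium, had 518, 1419 and 578 at E14 and 20.5, 17.9 and 21.6 at E5 (5.24, SE 0.37, adjusted p = 3.39e-08). GPIHBP1, which in mammals holds lipoprotein lipase on capillaries, had 406, 1528 and 947 at E14 and 13.8, 34.5 and 23.8 at E5 (5.22, SE 0.54, adjusted p = 2.08e-06). MSLN and GPIHBP1 varied widely among the E14 CAMs, with replicate 2 highest in both. LY6CLEL rose by 6.69 (SE 0.45) and LOC772080 by 4.84 (SE 0.36). LOC107049264 had an E5 signal of 0.173 in 1 CAM, an SE of 1.85 and an adjusted p of 0.00355, and that p was 0.0675 with eBayes without trend, 0.0889 with robust eBayes and 0.101 with the actin ratio as a covariate.

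The largest decreases included secreted regulators, an embryonic globin and a hormone carrier. LOC420770, again without a gene name, had 37.3, 139 and 51.9 at E14 and 5234, 9447 and 4726 at E5 (log2 fold change -6.58, SE 0.63, adjusted p = 8.37e-07). ASTL, an astacin-type metalloproteinase, had 21.7, 3.48 and 3.66 at E14 and 636, 1903 and 1351 at E5 (-7.499, SE 0.59, adjusted p = 9.1e-08). SST1, which encodes the peptide hormone somatostatin, had 8.47, 16.1 and 19.8 at E14 and 856, 808 and 1683 at E5 (-6.24, SE 0.59, adjusted p = 7.23e-07). All 3 E14 signals of SST1 were under 20. NDP, the Wnt receptor ligand norrin, had 5.54, 48.9 and 31.2 at E14 and 779, 865 and 835 at E5 (-5.34, SE 0.597, adjusted p = 4.66e-06). Transthyretin, TTR, which carries thyroid hormone in plasma, had 63.3, 151 and 34.3 at E14 and 2229, 806 and 1069 at E5 (-4.17, SE 0.53, adjusted p = 1.78e-05). HHIP, a membrane protein that binds hedgehog ligands and limits their action, had 91.2, 26.3 and 33.4 at E14 and 452, 693 and 516 at E5 (-3.66, SE 0.42, adjusted p = 5.64e-06). TTR varied widely between CAMs within each stage.

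UCHL1, a ubiquitin hydrolase abundant in neurons, had 92.8, 93.5 and 91.6 at E14 and 1288, 1950.1 and 1509.97 at E5 (-4.07, SE 0.31, adjusted p = 5.92e-08), with E14 signals that nearly coincided. SLC1A3, a glutamate transporter, had 35.7, 40.4 and 42.9 at E14 and 523, 486 and 391 at E5 (-3.55, SE 0.26, adjusted p = 4.94e-08). ARG2, the mitochondrial arginase, had 45.5, 31.1 and 65.8 at E14 and 498, 639 and 504 at E5 (-3.58, SE 0.36, adjusted p = 1.27e-06). All of them were lower in every E14 CAM than in any E5 CAM, as the choice required. DACT2, a modulator of Wnt and TGF-β signaling, fell by 5.12 on the log2 scale (SE 0.51), TNFRSF19, a receptor of the TNF family, by 3.66 (SE 0.37) and the α-tubulin-like TUBAL3 fell by 4.62 (SE 0.42). GATD3AL2 fell by 4.52 (SE 0.501) and LOC770574 fell by 4.26 (SE 0.51).

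**Figure D2:**
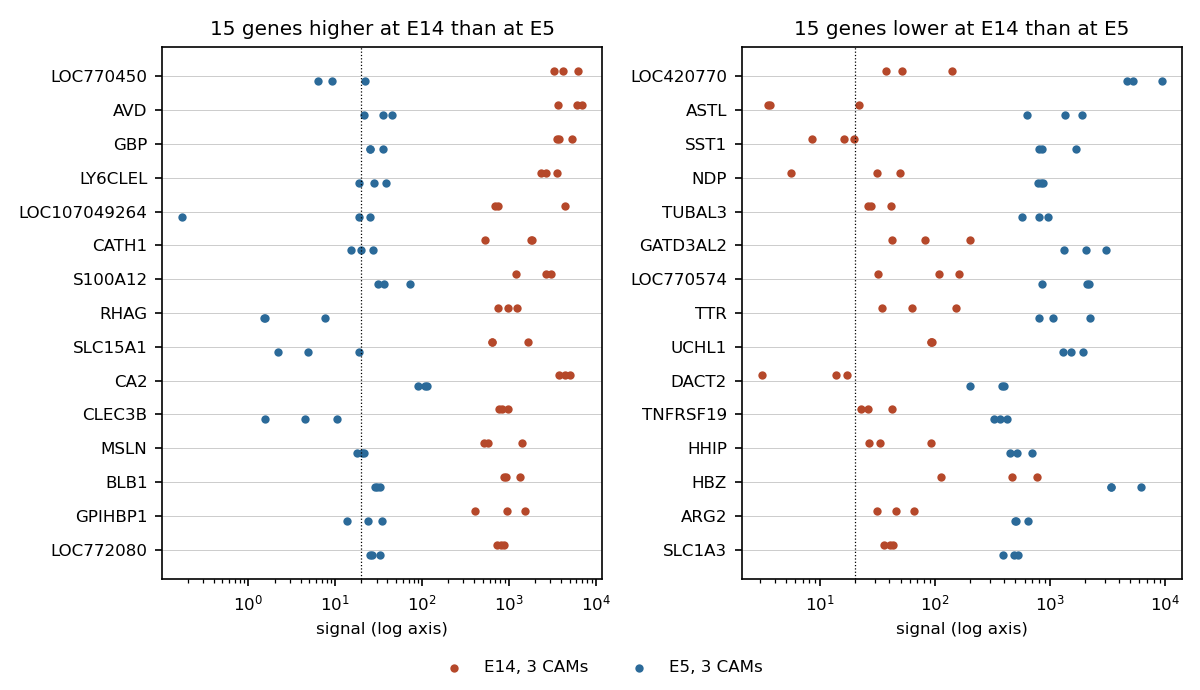
Signals on a log axis of the 15 genes with the largest rise (left) and the 15 with the largest fall (right), with the 3 E14 CAMs as the upper and the 3 E5 CAMs as the lower row of points for each gene, and signal 20 as a dotted line. The stages are apart in every gene because lack of overlap was a condition of choice. Several E5 signals on the left and E14 signals on the right lie under 20.

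Gene groups were read by counts of called members, each gene by its brightest probe set, beside the 10.5% higher and 9.33% lower over all genes and their median of 0.12. The lists differ in size and some share genes. In a whole membrane, fewer cells of a type and less RNA per cell cannot be told apart. The lists with the highest share of rising members were stratified epithelium, endothelium and leukocytes, and those with the highest share of falling members were mitosis, DNA replication and ribosome biogenesis, if the 5 hemoglobin subunits are set aside. Where a list had 1 member called in a direction, that count was 0 or 2 without some single array in epithelial junctions, calcium transport, elastic fibers, BMP and TGF-β signaling, thyroid and clock genes, splicing, oxidative phosphorylation and immediate-early genes. With the actin ratio as a covariate it was 0 in smooth muscle, epithelial junctions, stratified epithelium, salt and water transport, elastic fibers, DNA replication, splicing, oxidative phosphorylation and immediate-early genes.

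**Figure D3:**
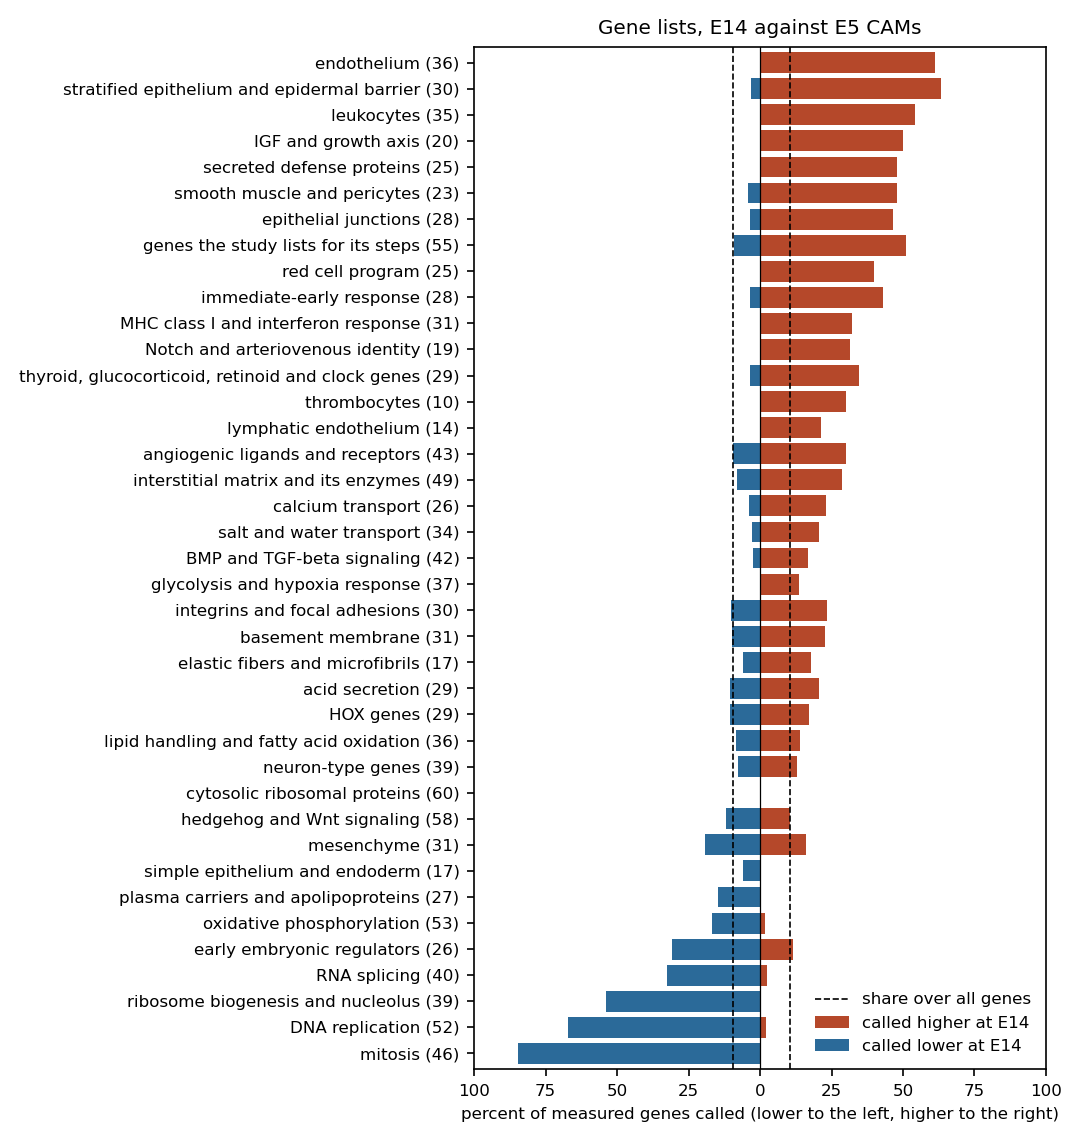
For each gene list, with the number of measured genes in parentheses, bars show the percent of genes called higher at E14 (to the right) and lower at E14 (to the left), and dashed lines mark 10.5% and 9.33% over all genes. Endothelium, leukocytes and stratified epithelium extend to the right, mitosis and DNA replication to the left, and cytosolic ribosomal proteins have no call.

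Embryonic hemoglobin chains fell, and some of the other genes of red cells rose. Hemoglobin is built from α-type and β-type chains, and birds exchange embryonic chains for definitive ones as the first red cells are replaced. HBZ, the embryonic α-type chain, had 778, 471 and 113 in the E14 CAMs and 3421, 6222 and 3383 in the E5 CAMs (log2 fold change -3.59, SE 0.47, adjusted p = 2.67e-05). The embryonic β-type chain HBBR had 3092, 1591 and 1031 at E14 and 3535, 5997 and 3394 at E5 (-1.28, SE 0.32, adjusted p = 0.00798), and HBE, also of β type, had 2611, 1729 and 1372 at E14 and 3092, 5444 and 3241 at E5 (-1.05, SE 0.28, adjusted p = 0.0121). The stages did not overlap in these 3 embryonic chains, and E14 replicate 3 was lowest in each. The calls of HBBR and HBE were lost without E14 replicate 3 (adjusted p = 0.069 and 0.0837), without E5 replicate 2 (0.0529 and 0.0758) and with the actin ratio as a covariate (0.0746 and 0.0877), which leaves 1 of the 3 falling subunits. The other α-type chains, HBA1 and HBAD, were bright at both stages and were not called. HBA1 had 7195, 6286 and 6888 at E14 and 3305, 6052 and 3638 at E5 (0.699, SE 0.28, adjusted p = 0.111), and HBAD had 9407, 7474 and 8794 at E14 and 3843, 6863 and 3579.9 at E5 (0.904, SE 0.26, adjusted p = 0.0223), with an adjusted p under 0.05 but a fold under 2. In both of these probe sets every E14 signal was above every E5 signal. In another bright probe set of each gene, also not called, the stages overlapped. There HBA1 had 5797 in E14 replicate 2 and 6178 in E5 replicate 2, and HBAD had 5594 and 5641 in the same CAMs. Probe sets that the annotation gives to several genes were not named, among them those for the adult β chain. The chains are close copies of each other, and the probe sets may read more than 1 of them.

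Of 25 measured genes of the red cell program other than hemoglobin, 10 rose and none fell (median 0.76). SLC4A1, the band 3 anion exchanger that moves bicarbonate across the red cell membrane, had 2811, 2736 and 2410.3 at E14 and 369.8, 741 and 393 at E5 (log2 fold change 2.48, SE 0.27, adjusted p = 2.87e-06). BPGM, which makes the phosphoglycerate that tunes oxygen binding in mammalian red cells, had 2768, 1788 and 1046 at E14 and 249, 270.4 and 258 at E5 (2.74, SE 0.36, adjusted p = 2.31e-05). SPTB, the β-spectrin of the red cell skeleton, had 1017, 499 and 515 at E14 and 47.8, 83.9 and 45.6 at E5 (3.49, SE 0.36, adjusted p = 1.62e-06). The stages were apart in all 3, and replicate 1 was the highest E14 CAM in each. RHCE, another Rh protein, rose by 2.496 (SE 0.27). Summed over the list, signals came to 21768 to 31562 in the E14 CAMs and 8618 to 13349 in the E5 CAMs. Bright genes weigh most in such a sum, among them CA2, which is also in the acid secretion list. The sums of the 5 hemoglobin subunits, 17552 to 23083 at E14 and 17197 to 30578 at E5, overlapped. They leave out the adult β chain and are therefore no measure of total hemoglobin. The share of blood in each sample was not tested.

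Many genes of the vessel wall rose. Of 36 measured endothelial genes, 22 rose and none fell, with a median log2 fold change of 1.26. VWF, the clotting factor stored by endothelial cells, had 1289.6, 1355 and 1228 in the E14 CAMs and 165, 137 and 230.1 in the E5 CAMs (log2 fold change 2.896, SE 0.22, adjusted p = 5.65e-08). KLF2, a transcription factor induced by blood flow, was counted with the immediate-early genes and not in this list. It had 638, 1432 and 813 at E14 and 132, 113 and 243 at E5 (2.56, SE 0.31, adjusted p = 9.56e-06). TMEM100, an endothelial membrane protein downstream of BMP signaling, had 396, 706 and 508 at E14 and 57.5, 76.6 and 89.6 at E5 (2.83, SE 0.31, adjusted p = 3.04e-06). In KLF2 and TMEM100 replicate 2 was highest at E14, and no E5 signal reached an E14 signal. JAM2, a junction protein of endothelium, rose by 3.43 (SE 0.47). It is not in this list but among the genes that the study prints for its steps. PECAM1, an adhesion molecule of endothelial junctions, was not called by its brightest probe set, with 573, 1127 and 478 at E14 and 530.02, 505 and 633 at E5 (0.29, SE 0.32, adjusted p = 0.646), and there the stages overlapped. The study lists other probe sets of PECAM1 as rising from E5 to E7, and these values do not cover them. CDH5, the cadherin of endothelial junctions, passed narrowly, with 2789, 1997 and 1545 at E14 and 894, 935 and 1262 at E5 (1.01, SE 0.24, adjusted p = 0.0054). Its log2 fold change was under the limit without E14 replicate 1 (0.79), E5 replicate 1 (0.92) or E5 replicate 2 (0.95). The endothelial count was 14 with the actin ratio as a covariate and 12 with equal medians. List sums were 17996 to 21501 at E14 and 7843 to 10210.4 at E5.

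Lymphatic endothelium was read by 14 genes, of which 3 rose (median 0.85). RELN, a secreted matrix glycoprotein, had 869, 558 and 557 at E14 and 44.8, 47.3 and 54.8 at E5 (log2 fold change 3.73, SE 0.28, adjusted p = 5.65e-08), and VEGFD, a ligand that drives lymphatic growth, had 437, 766 and 465 at E14 and 69.8, 105 and 74.8 at E5 (2.72, SE 0.302, adjusted p = 4.46e-06). In both genes the stages were far apart. LYVE1, a hyaluronan receptor of these vessels, had 682, 442 and 294 at E14 and 189, 159 and 225 at E5 (1.24, SE 0.28, adjusted p = 0.00429), with a log2 fold change of 0.93, under the limit, without E14 replicate 1 and an adjusted p of 0.223 with the actin ratio as a covariate. The list count was 5 without E14 replicate 2 or E5 replicate 3. In the Notch and arteriovenous list 6 of 19 rose and none fell (median 0.31), among them HEY1, a target gene of Notch, with 284, 546 and 475 at E14 and 94.7, 93.2 and 78.9 at E5 (2.24, SE 0.29, adjusted p = 1.97e-05), and the Notch ligands DLL1 (2.3, SE 0.46) and JAG2 (1.64, SE 0.35).

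Of 23 smooth muscle and pericyte genes, 11 rose and 1 fell (median 1.204). ACTG2, a smooth muscle actin, had 3369, 671 and 1015 at E14 and 86.7, 44.5 and 96.1 at E5 (log2 fold change 4.198, SE 0.49, adjusted p = 8.11e-06). TAGLN, an actin-binding protein of contractile cells, had 3165, 1027 and 1747 at E14 and 253, 486 and 429 at E5 (2.25, SE 0.32, adjusted p = 5.51e-05). RGS4, a brake on G protein signaling, had 390.3, 334 and 399 at E14 and 46.8, 50.7 and 75.2 at E5 (2.73, SE 0.32, adjusted p = 7.75e-06). Replicate 1 stood above the other E14 CAMs in ACTG2 and TAGLN, and the stages did not overlap in any of the 3 genes. ACTA2, the actin most used to mark smooth muscle, was dim on this array, with 60.4, 24.4 and 52.4 at E14 and 18.7, 26.3 and 37.6 at E5, and was not called (adjusted p = 0.421). The rising count was 4 with the actin ratio as a covariate, 6 with equal medians, and 7 with signals floored at 20 or with eBayes without trend. The falling member was SYNPO2, an actin-associated protein (-2.83, SE 0.603, adjusted p = 0.00243), which did not pass with the actin ratio as a covariate (adjusted p = 0.0689).

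Among 43 angiogenic ligands and receptors, 13 rose and 4 fell (median 0.46), with 8 rising with the actin ratio as a covariate and 2 falling with eBayes without trend. The rising share was 30.2%, against 10.5% over all genes, and the falling share, 9.3%, was near the 9.33% over all genes. CCN3, a matricellular protein, had 891, 637 and 549 at E14 and 54.98, 31.5 and 39.99 at E5 (log2 fold change 4.05, SE 0.33, adjusted p = 1.45e-07). FGFBP1, which frees FGFs from the matrix, had 689, 912 and 2238 at E14 and 127, 117 and 183 at E5 (3.004, SE 0.402, adjusted p = 3.06e-05). In the other direction FGFR3, a receptor for FGFs, had 189, 64.8 and 215 at E14 and 659, 547 and 770.1 at E5 (-2.24, SE 0.34, adjusted p = 0.000115). EPHA3, a receptor for ephrins, is not in this list but among the genes that the study prints for its steps. It also fell, with 460.1, 104 and 359 at E14 and 1665, 1394 and 1609 at E5 (-2.59, SE 0.36, adjusted p = 4.98e-05). Replicate 2 was the lowest E14 CAM in FGFR3 and EPHA3, and the stages remained apart. KDR, the main VEGF receptor of endothelium, had 115, 65.8 and 94.9 at E14 and 37.8, 32.4 and 36.5 at E5 (1.33, SE 0.39, adjusted p = 0.0247), a call that was lost without E14 replicate 1 (adjusted p = 0.106), E14 replicate 3 (0.0731), E5 replicate 1 (0.0558), E5 replicate 2 (0.0768) or E5 replicate 3 (0.0611).

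Many genes of stratified, keratin-rich epithelium rose. Of 30 such genes, 19 rose and 1 fell, with a median log2 fold change of 2.03. KRT14, a keratin of basal epidermal cells, had 5267, 4574 and 5363 in the E14 CAMs and 153, 336 and 275 in the E5 CAMs (log2 fold change 4.39, SE 0.33, adjusted p = 5.82e-08). COL17A1, a collagen of hemidesmosomes, had 349, 742 and 789 at E14 and 34.4, 54.7 and 63.4 at E5 (3.58, SE 0.397, adjusted p = 4.34e-06). ELF3, an epithelial transcription factor, had 719.6, 419 and 599.98 at E14 and 75.8, 43.3 and 44.2 at E5 (3.43, SE 0.29, adjusted p = 1.82e-07). The stages were far apart in each of them. KRT6A, a keratin of stressed or thickened epidermis in mammals, had 205, 703 and 119 at E14 and 1.42, 1.68 and 1.397 at E5 (7.43, SE 0.98, adjusted p = 2.61e-05), with replicate 2 well above the other E14 CAMs. The falling member was GRHL3, which directs formation of the skin barrier (-1.32, SE 0.28, adjusted p = 0.00259). It did not pass with the actin ratio as a covariate (adjusted p = 0.277). With that covariate 12 members rose. List sums were 14544 to 15451 at E14 and 1833 to 2311 at E5. The share of chorionic epithelium in the samples of each stage was not tested.

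Of 28 genes of epithelial junctions, 13 rose and 1 fell (median 1.28). CDH1, E-cadherin, had 1954, 2263 and 2604 at E14 and 565, 712 and 594 at E5 (log2 fold change 1.86, SE 0.197, adjusted p = 2.49e-06). The tight junction protein CLDN3 had 1671, 1511 and 2108 at E14 and 323, 376 and 359 at E5 (2.31, SE 0.24, adjusted p = 1.73e-06). SPINT1, an inhibitor of epithelial serine proteases, rose by 2.24 (SE 0.22) and DSP, the desmosome protein desmoplakin, by 1.95 (SE 0.35). The pan-epithelial EPCAM had 6709, 6269 and 6681 at E14 and 2057, 2683 and 2251 at E5 (1.5, SE 0.22, adjusted p = 7.14e-05). Its adjusted p was 0.0716 with equal medians, at a log2 fold change of 1.21. The list of simple epithelium and endoderm behaved otherwise, with none of 17 called higher by limma, 1 higher at an unadjusted p under 0.05 and a median of 0.33. With the actin ratio as a covariate 3 members fell. Without it the falling member was GATA5, a transcription factor of endoderm and heart, with 299.9, 177 and 320.4 at E14 and 2256, 2398 and 2276 at E5 (-3.17, SE 0.23, adjusted p = 4.8e-08), and the stages were far apart.

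The lists of acid secretion, calcium transport and salt and water transport held a larger share of rising members than genes over all. They also hold rising genes that carry no ions themselves, such as CA2, MGP and the kinase SGK1. CA2 and SLC4A1 count in the red cell list as well. Shares called higher were 20.7% in acid secretion, 23.1% in calcium transport and 20.6% in salt and water transport, against 10.5% over all genes. Shares called lower were 10.3%, 3.85% and 2.94%, near or under the 9.33% over all genes. In acid secretion 6 of 29 rose and 3 fell (median 0.497), in calcium transport 6 of 26 rose and 1 fell (median 0.65), and in salt and water transport 7 of 34 rose and 1 fell (median 0.63). SCNN1B, a subunit of the epithelial sodium channel, had 1181, 746 and 645 at E14 and 25.1, 68.1 and 40.9 at E5 (log2 fold change 4.33, SE 0.39, adjusted p = 3.65e-07). SCNN1G, another subunit of that channel, had 204, 188 and 171 at E14 and 19.6, 51.8 and 34.2 at E5 (2.52, SE 0.38, adjusted p = 0.000102). SLC12A1, the sodium, potassium and chloride cotransporter of the mammalian kidney, had 586, 656 and 716 at E14 and 120.2, 35.7 and 36.7 at E5 (3.59, SE 0.34, adjusted p = 7.73e-07). All of these were higher in every E14 CAM than in any E5 CAM. ATP12A, a proton pump that takes up potassium, had 671, 920.4 and 549 at E14 and 189, 107 and 199.6 at E5 (2.13, SE 0.27, adjusted p = 1.76e-05). RHCG, an ammonia channel of epithelia, had 114, 204 and 319 at E14 and 7.24, 19.7 and 1.19 at E5 (5.14, SE 0.76, adjusted p = 8.28e-05). MGP, a matrix protein that inhibits calcification and was listed with calcium transport, had 7953, 6594 and 6968 at E14 and 537, 508 and 379.5 at E5 (3.93, SE 0.22, adjusted p = 3.18e-09). Against these, ATP2B1, a pump that expels calcium from cells, had 94.6, 97.6 and 92.9 at E14 and 335, 341 and 317 at E5 (-1.801, SE 0.23, adjusted p = 1.66e-05), with hardly any spread within a stage.

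Other members of the ion lists were unsteady. AQP3, an aquaporin that also passes glycerol, had 33.2, 359 and 88.96 at E14 and 496, 441 and 721 at E5 (-2.41, SE 0.57, adjusted p = 0.00564), and its fold change was 0.0045 with the actin ratio as a covariate. AQP5, an aquaporin of secretory epithelia, had 600.2, 985 and 1613 at E14 and 33.9, 151 and 117 at E5 (3.55, SE 0.78, adjusted p = 0.00327), which did not pass with that covariate (adjusted p = 0.348). The gene for FOXI1, which directs the fate of proton-secreting cells, had 58.96, 109 and 159 at E14 and 212, 554 and 396 at E5 (-1.83, SE 0.39, adjusted p = 0.00239, and adjusted p = 0.0722 with the covariate). The 3 falling members of acid secretion became 1 without E5 replicate 3 and 0 with the covariate, and the 6 rising members of calcium transport became 2.

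Many leukocyte genes rose. Of 35 measured, 19 rose and none fell, with a median log2 fold change of 1.85, and the list summed to 5968 to 8379 in the E14 CAMs and 1183 to 1273 in the E5 CAMs. CD74, the invariant chain of MHC class II, had 932, 1770.3 and 1675 at E14 and 52.8, 82.4 and 86.2 at E5 (log2 fold change 4.28, SE 0.29, adjusted p = 1.8e-08). C1QB, a complement chain made by macrophages, had 624, 362 and 740.1 at E14 and 18.8, 24.7 and 29.9 at E5 (4.52, SE 0.43, adjusted p = 8.44e-07). CSF1R, the receptor for the macrophage growth factor, had 193, 317 and 329.7 at E14 and 78.2, 88.3 and 88.1 at E5 (1.68, SE 0.28, adjusted p = 0.000229). The stages did not overlap in any of them. The pan-leukocyte marker PTPRC was dim and not called, with 26.9, 44.9 and 66.4 at E14 and 17.4, 3.08 and 18.3 at E5 (adjusted p = 0.0928). With the actin ratio as a covariate 14 leukocyte genes rose. Of 10 thrombocyte genes 3 rose and none fell (median 0.75), a count that was 0 with equal medians, and the thrombocyte receptor chain GP9 had 30.1, 65.8 and 12.1 at E14 and 23.7, 20.9 and 35.3 at E5 (adjusted p = 0.922).

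In MHC class I and interferon response 10 of 31 genes rose and none fell (median 1.21), and 6 rose with equal medians. B2M, the light chain of class I molecules, had 2588, 2578 and 2132 at E14 and 441, 487 and 291 at E5 (log2 fold change 2.61, SE 0.28, adjusted p = 2.56e-06). TAPBP, which loads peptides on class I molecules, had 481, 560.2 and 715 at E14 and 16.98, 41.8 and 42.2 at E5 (4.22, SE 0.34, adjusted p = 1.11e-07), and the class I heavy chain BF2 had 332, 220.5 and 281 at E14 and 21.5, 51.8 and 31.4 at E5 (3.07, SE 0.37, adjusted p = 9.27e-06). No E5 signal came near an E14 signal. IRF1, a transcription factor of the interferon response, rose by 3.75 (SE 0.56). Of 25 secreted defense proteins 12 rose and none fell (median 1.23), and with the actin ratio as a covariate 4 rose. LYZ, the bacteria-lysing lysozyme, had 316, 202 and 742 at E14 and 1.19, 2.84 and 1.55 at E5 (7.705, SE 1.17, adjusted p = 0.000113, and adjusted p = 0.0833 with the covariate).

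Matrix genes rose more often than genes over all. Shares called higher were 28.6% in interstitial matrix and 22.6% in basement membrane, against 10.5% over all genes. Shares called lower, 8.16% and 9.68%, were near the 9.33% over all genes. Of 49 genes of interstitial matrix and its enzymes, 14 rose and 4 fell (median 0.88), and the counts were 7 rising and 1 falling with the actin ratio as a covariate. With equal medians 7 rose, and with signals floored at 20 or eBayes without trend 2 fell. COL12A1, a collagen that coats fibrils, had 1110.03, 1169.6 and 1009 at E14 and 138, 194 and 208 at E5 (log2 fold change 2.63, SE 0.23, adjusted p = 2.24e-07), and TIMP3, a matrix-bound inhibitor of metalloproteinases, had 1729.98, 1905 and 1908 at E14 and 313, 469.7 and 389 at E5 (2.26, SE 0.196, adjusted p = 2.66e-07). POSTN, the matricellular protein periostin, had 185, 59.5 and 720.1 at E14 and 7.33, 19.3 and 21.2 at E5 (3.79, SE 0.76, adjusted p = 0.00138), with replicate 3 far above the other E14 CAMs. In the basement membrane 7 of 31 rose and 3 fell (median 0.38), with 1 falling with the actin ratio as a covariate. The collagen IV chains divided. COL4A1 had 1509, 1013 and 1135 at E14 and 173, 196 and 393 at E5 (2.34, SE 0.27, adjusted p = 5.77e-06), and its partner COL4A2 had 3640.4, 2483 and 3954 at E14 and 449, 738 and 993 at E5 (2.25, SE 0.26, adjusted p = 6.03e-06). COL4A5, a chain of a different collagen IV network, had 191, 177 and 183 at E14 and 809, 925 and 1141 at E5 (-2.37, SE 0.27, adjusted p = 5.79e-06). The stages were apart in all 3 chains, with opposite signs.

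LAMA3, a laminin chain beneath epithelium, rose by 3.66 (SE 0.47) and LAMA4, a laminin chain beneath endothelium, by 2.16 (SE 0.34). Of 30 integrin and focal adhesion genes 7 rose and 3 fell (median 0.42), with 1 falling with the actin ratio as a covariate. The rising share was 23.3%, against 10.5% over all genes, and the falling share, 10%, was near the 9.33% over all genes. ITGA6 and ITGB4, which pair in hemidesmosomes, both rose, ITGA6 with 877, 2016 and 1615 at E14 and 143, 149 and 162 at E5 (log2 fold change 3.23, SE 0.28, adjusted p = 3.09e-07) and ITGB4 with 620.2, 511 and 743 at E14 and 49.3, 89.04 and 49.7 at E5 (3.36, SE 0.297, adjusted p = 3.17e-07). ITGA4, a receptor for fibronectin and VCAM1, fell, with 95.9, 81.8 and 103 at E14 and 447, 152 and 369 at E5 (-1.65, SE 0.35, adjusted p = 0.00257). Of 17 elastic fiber genes 3 rose and 1 fell (median 0.22), among them EFEMP1, a fibulin, with 797, 524 and 352 at E14 and 25.6, 38.3 and 15.3 at E5 (4.42, SE 0.496, adjusted p = 4.93e-06).

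Most genes of cell division fell. Of 46 measured mitosis genes 39 fell and none rose, with a median log2 fold change of -1.76, and in 45 of them all 3 E14 signals lay below all 3 E5 signals. KIF20A, a kinesin of cytokinesis, had 79.1, 76.8 and 103 in the E14 CAMs and 689.8, 755 and 996 in the E5 CAMs (log2 fold change -3.23, SE 0.25, adjusted p = 6.1e-08). AURKB, the kinase of the chromosomal passenger complex, had 231, 245 and 235 at E14 and 2152, 2017 and 1689 at E5 (-3.04, SE 0.22, adjusted p = 4.94e-08), and NUF2, a kinetochore protein, had 68.1, 233 and 67.02 at E14 and 953, 906 and 759 at E5 (-3.09, SE 0.35, adjusted p = 4.93e-06). These genes were lower in every E14 CAM than in any E5 CAM. The list summed to 9703 to 12010.0 at E14 and 35610.2 to 41387 at E5, and 33 members fell with the actin ratio as a covariate.

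Of 52 DNA replication genes 35 fell and 1 rose (median -1.399), and 19 fell with the actin ratio as a covariate. CDC45, a part of the replicative helicase, had 136, 161 and 133 at E14 and 1021, 879.9 and 949 at E5 (log2 fold change -2.73, SE 0.21, adjusted p = 8.14e-08). MCM6, another helicase subunit, had 161, 171 and 164 at E14 and 788, 921 and 1165 at E5 (-2.52, SE 0.24, adjusted p = 6.2e-07), and TYMS, which makes thymidylate, had 213, 272 and 318 at E14 and 1611, 1482 and 1299 at E5 (-2.46, SE 0.25, adjusted p = 1.27e-06). The stages were apart in each. The rising member was E2F1, a transcription factor that turns on replication genes, with 502, 504 and 538 at E14 and 248, 234 and 205 at E5 (1.17, SE 0.21, adjusted p = 0.000566), and it did not pass with the actin ratio as a covariate (adjusted p = 0.0707) or with equal medians (0.055).

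Genes that assemble ribosomes and those that encode ribosomal proteins differed. Of 39 genes of ribosome biogenesis 21 fell and none rose (median -1.09), and 12 fell with the actin ratio as a covariate. EMG1, a methyltransferase of ribosomal RNA, had 137, 153 and 122 at E14 and 786, 602 and 538 at E5 (log2 fold change -2.21, SE 0.27, adjusted p = 1.31e-05). GAR1, a protein of the particles that modify ribosomal RNA, had 249, 211 and 331 at E14 and 829.7, 794 and 1028 at E5 (-1.76, SE 0.22, adjusted p = 1.24e-05). Both were lower in every E14 CAM than in any E5 CAM. Of 60 ribosomal protein genes limma called none, although 50 were higher and 1 lower at an unadjusted p under 0.05 and the median log2 fold change was 0.63. Without E5 replicate 2, 13 of them were called higher. The highest log2 fold change in this list was 0.88, under the fold limit. Of 40 splicing genes 13 fell and 1 rose (median -0.63), led by HNRNPH3, an RNA-binding splicing factor, with 464, 486 and 463 at E14 and 1641, 1999.5 and 2016 at E5 (-1.995, SE 0.23, adjusted p = 5.34e-06), and 6 fell with the actin ratio as a covariate.

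Of 53 genes of oxidative phosphorylation 9 fell and 1 rose (median -0.31), and 4 fell with the actin ratio as a covariate or with eBayes without trend. CYCS, cytochrome c, had 737, 784 and 947 at E14 and 2652, 3169 and 2269.96 at E5 (log2 fold change -1.71, SE 0.24, adjusted p = 4.74e-05), and NDUFA10, a subunit of respiratory complex I, had 359, 281 and 473 at E14 and 1391, 1375 and 1197 at E5 (-1.86, SE 0.25, adjusted p = 2.57e-05). In both the stages were apart. Of 37 genes of glycolysis and the hypoxia response 5 rose and none fell (median 0.41), and with equal medians 2 rose and 1 fell. The rising share, 13.5%, was near the 10.5% over all genes. PDK4, a kinase that holds back pyruvate oxidation, had 309.5, 1977 and 425 at E14 and 29.8, 5.24 and 37.5 at E5 (5.15, SE 0.62, adjusted p = 9.7e-06), with replicate 2 highest at E14. Of 36 lipid genes 5 rose and 3 fell (median 0.04), among them PPARGC1A, a coactivator of mitochondrial genes, which rose (2.06, SE 0.26, adjusted p = 1.35e-05), and ELOVL6, which lengthens fatty acids, which fell (-1.74, SE 0.24, adjusted p = 4.32e-05). The falling count of this list was 5 without E14 replicate 2, and the rising count was 3 with the actin ratio as a covariate. The shares called, 13.9% and 8.33%, were near the 10.5% and 9.33% over all genes.

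In the IGF and growth axis 10 of 20 genes rose and none fell (median 1.27). INSR, the insulin receptor, had 285, 267 and 146 at E14 and 32.5, 38.3 and 33.4 at E5 (log2 fold change 2.69, SE 0.33, adjusted p = 1.2e-05), and IGFBP7, a secreted IGF-binding protein, had 3485, 3831 and 2842 at E14 and 706, 789.5 and 1026 at E5 (2.02, SE 0.21, adjusted p = 1.92e-06). Both were higher in every E14 CAM. With the actin ratio as a covariate 6 genes of the list rose. Of 29 genes of thyroid, glucocorticoid and retinoid signaling and the clock 10 rose and 1 fell (median 0.69), and 5 rose with the covariate. FKBP5, a glucocorticoid-induced chaperone partner of the receptor, had 307, 681 and 527 at E14 and 69.6, 94.99 and 91.1 at E5 (2.504, SE 0.33, adjusted p = 2.41e-05). KLF9, a transcription factor induced by thyroid hormone and glucocorticoids, had 168, 191 and 103 at E14 and 13.1, 17.8 and 20.5 at E5 (3.15, SE 0.45, adjusted p = 5.64e-05). SGK1, a kinase of salt transport, was counted with salt and water transport and not in this list. It had 995, 2754 and 1529.5 at E14 and 427, 301 and 362 at E5 (2.17, SE 0.28, adjusted p = 1.96e-05). E14 replicate 2 was the highest CAM in all 3 of these genes.

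Of 28 immediate-early genes 12 rose and 1 fell (median 1.31), and 11 rose with the actin ratio as a covariate. NFKBIA, the inhibitor of NF-κB, had 811, 1243 and 841 at E14 and 156, 156 and 143 at E5 (log2 fold change 2.64, SE 0.24, adjusted p = 4.46e-07). BTG2, an antiproliferative gene, had 1806, 2865 and 1648 at E14 and 470.04, 351 and 404 at E5 (2.33, SE 0.26, adjusted p = 4.98e-06). ZFP36L1, which speeds the decay of short-lived mRNAs, had 1243, 1242 and 2455 at E14 and 311, 300.5 and 273 at E5 (2.404, SE 0.26, adjusted p = 2.73e-06). No signals overlapped between the stages. Immediate-early genes also answer to handling of tissue, and the time from opening of the egg to freezing was not given in the sources used here, so that its part was not tested.

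In BMP and TGF-β signaling 7 of 42 genes rose and 1 fell (median 0.597), while 4 rose without E14 replicate 1 or with eBayes without trend and 3 with the actin ratio as a covariate. BMP5, a ligand, was the falling member, with 28.4, 31.7 and 20.5 at E14 and 132, 146 and 159 at E5 (log2 fold change -2.46, SE 0.37, adjusted p = 0.000115). MSX1, a homeobox target of BMPs, was counted with the mesenchymal genes and not in this list. It rose, with 616, 1326 and 583 at E14 and 119, 216 and 214 at E5 (2.14, SE 0.31, adjusted p = 6.19e-05). In hedgehog and Wnt signaling the directions were mixed, with 6 of 58 higher, 7 lower and a median of 0.06. These shares, 10.3% and 12.1%, were near the 10.5% and 9.33% over all genes. The ligand WNT6 had 273, 385 and 268 at E14 and 43.6, 70.6 and 36.5 at E5 (2.66, SE 0.305, adjusted p = 6.07e-06), and the Wnt receptor FZD5 had 134, 309 and 169.7 at E14 and 18.9, 31.8 and 34.7 at E5 (2.797, SE 0.43, adjusted p = 0.000119). The Wnt inhibitor SFRP1 had 92.8, 74.1 and 101.1 at E14 and 379, 338 and 422 at E5 (-2.09, SE 0.23, adjusted p = 4.03e-06). The Wnt receptor FZD2 fell by 1.41 (SE 0.26) and FZD7, another such receptor, fell by 1.63 (SE 0.38). The falling count of this list was 3 with the actin ratio as a covariate and 4 with eBayes without trend.

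Of 26 early embryonic regulators 8 fell and 3 rose (median -1.09), and the counts were 3 falling and 0 rising with the actin ratio as a covariate. The rising count was also 0 without E14 replicate 1 and was 1 with signals floored at 20. The rising share, 11.5%, was near the 10.5% over all genes, and the falling share was 30.8%, against 9.33%. PLAGL1, an imprinted zinc finger gene in mammals, had 6.65, 1.396 and 2.05 at E14 and 50.3, 39.998 and 35.9 at E5 (log2 fold change -3.96, SE 0.77, adjusted p = 0.00113), and DLK1, a noncanonical Notch ligand of immature cells, had 17.9, 5.903 and 18.7 at E14 and 68.01, 58.3 and 117 at E5 (-2.62, SE 0.61, adjusted p = 0.00469). Both were dim at E14. Of 29 HOX genes 5 rose and 3 fell (median 0.22), with 1 falling without E14 replicate 3 or with eBayes without trend, 2 rising with the actin ratio as a covariate and 3 rising with equal medians. The rising share was 17.2%, against 10.5% over all genes, and the falling share, 10.3%, was near the 9.33% over all genes. HOXA3, a homeobox patterning gene, had 412, 246 and 329.6 at E14 and 92.4, 61.3 and 88.8 at E5 (2.02, SE 0.26, adjusted p = 2.32e-05). Of 31 mesenchymal genes 5 rose and 6 fell (median -0.23), with 3 rising without E14 replicate 3 or E5 replicate 2 or with signals floored at 20, 2 rising with eBayes without trend, and 1 rising and 3 falling with the actin ratio as a covariate. MSX1, described above, was among the rising members. The mesenchymal marker COL3A1, counted with interstitial matrix, rose (log2 fold change 1.01, SE 0.21, adjusted p = 0.00233), but not with equal medians (adjusted p = 0.383). The markers COL1A2 (0.98, SE 0.26, adjusted p = 0.0121) and PDGFRA (-0.75, SE 0.57, adjusted p = 0.458) were not called. SNAI1, which represses E-cadherin, fell, with 143, 136 and 204 at E14 and 544, 636 and 846 at E5 (-2.07, SE 0.24, adjusted p = 8.23e-06), as did HAND2, a transcription factor of lateral mesoderm, with 94.1, 34.9 and 34.5 at E14 and 266, 403 and 274 at E5 (-2.67, SE 0.39, adjusted p = 7.26e-05), and CDH2, N-cadherin, with 41.8, 10.6 and 45.6 at E14 and 225, 204 and 238 at E5 (-3.03, SE 0.44, adjusted p = 7.97e-05).

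Neuron-type genes were mixed, with 5 of 39 higher, 3 lower and a median of -0.1, and 3 were higher with the actin ratio as a covariate. The shares called, 12.8% and 7.69%, were near the 10.5% and 9.33% over all genes. The neuronal β-tubulin TUBB3 had 979, 985 and 448 at E14 and 40.5, 40.9 and 45.99 at E5 (log2 fold change 4.16, SE 0.31, adjusted p = 5.82e-08), while CRMP1, a protein of axon growth, fell, with 34.99, 15.6 and 18.9 at E14 and 145, 148 and 132 at E5 (-2.704, SE 0.43, adjusted p = 0.00018). Of 57 genes that the study prints for its steps between stages, 55 were measured, 28 rose and 5 fell (median 1.14). With the actin ratio as a covariate 2 fell. These genes were chosen on these same arrays and are no independent evidence of a direction.

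Markers of neighboring tissues differed in level and direction. The liver genes ALB, AFP and FGB averaged 28.99, 17.5 and 7.81 at E14 and 23.1, 22.1 and 23.2 at E5, and the skeletal muscle gene MYLPF averaged 4.006 at E14 and 2.71 at E5. HNF4A, a regulator of yolk sac endoderm and liver, averaged 25.4 at E14 and 17.1 at E5. The neuronal genes NEFL and STMN2 averaged 107 and 45.6 at E14 and 53.96 and 10.6 at E5, and COL9A1, a collagen of cartilage, averaged 8.33 at E14 and 17.8 at E5. APOA1, an apolipoprotein also made by yolk sac endoderm, was bright, with 1142, 1993 and 886 at E14 and 646, 502 and 659 at E5 (log2 fold change 1.08, SE 0.41, adjusted p = 0.088). None of these was called, although in APOA1, HNF4A, NEFL and STMN2 every E14 signal lay above every E5 signal. TTR, the remaining marker of yolk sac endoderm, was called and went the other way, with a mean of 82.9 at E14 and 1368 at E5 (log2 fold change -4.17, SE 0.53). Of 27 plasma carriers and apolipoproteins none rose and 4 fell (median 0.16), with 5 higher and 7 lower at an unadjusted p under 0.05, and 2 rose with the actin ratio as a covariate. Besides TTR the falling members included the iron oxidase CP, with 49.8, 38.9 and 59.1 at E14 and 137, 246 and 227 at E5 (log2 fold change -2.02, SE 0.31, adjusted p = 0.000137). COL2A1, the collagen of cartilage, had 421, 51.5 and 356 at E14 and 816, 769 and 898 at E5 (-2.06, SE 0.53, adjusted p = 0.00973). Its call was lost with signals floored at 20 (adjusted p = 0.106), with eBayes without trend (0.103), with robust eBayes (0.0862) and with the actin ratio as a covariate (0.0546). The part of other tissues carried with the membrane was not tested.

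The course through E7 and E10, here in means over 3 CAMs, differed between genes. AURKB had 1952 at E5, 1187 at E7, 603 at E10 and 237 at E14, and KRT14 had 255, 545, 1953 and 5068 at the same stages. These means ran in 1 direction through the stages. AVD had 34.2, 40.8, 111 and 5575, and C1QB had 24.5, 40.6, 46.5 and 575, so that nearly all of the difference lay between E10 and E14. TTR had 1368, 127, 35.02 and 82.9, most of its difference lying between E5 and E7. VEGFD was not monotonic, with 83.3 at E5, 326 at E7, 74.96 at E10 and 556 at E14, and HBZ had 4342, 8245, 1995 and 454, with its highest mean at E7. A2M, a protease inhibitor that fell here (-1.81, SE 0.34, adjusted p = 0.000912), had 226, 747, 1319.7 and 61.1, so that its E5 and E14 levels were both far under its mean at E10. MFAP5, a microfibril protein that rose here (2.78, SE 0.35, adjusted p = 1.68e-05), likewise had its highest mean at E10, with 31.7, 173, 366 and 205.

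**Figure D4:**
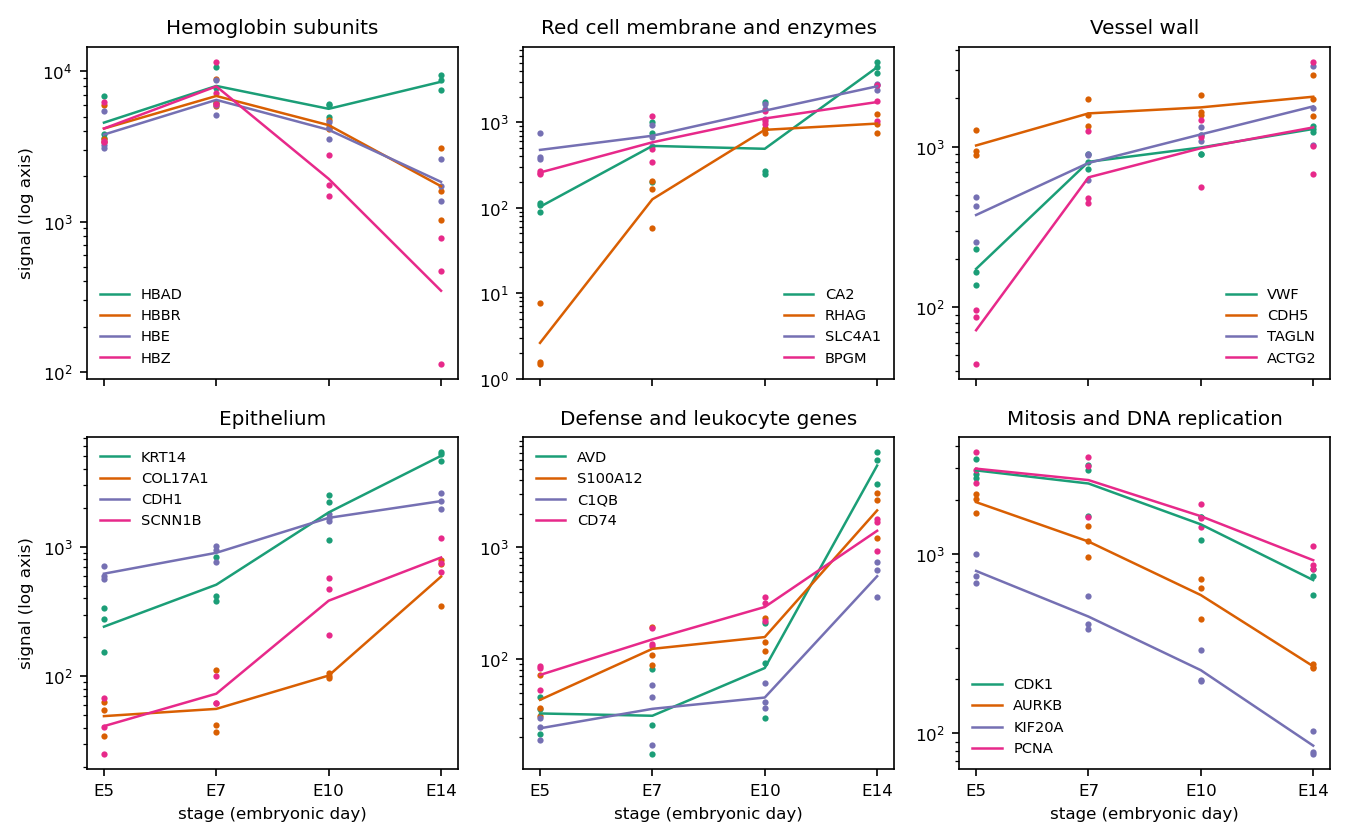
Signals on a log axis at E5, E7, E10 and E14 for 4 genes in each of 6 groups, with points for single CAMs and lines through the mean of log2 signal at each stage. HBZ drops after E7, AVD and C1QB climb between E10 and E14, and the mitosis and replication genes decline through the stages.

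The probe sets called between E14 and E5 were also read between E10 and E7, whose 6 arrays enter neither side of the first comparison. Over all probe sets, limma called 397 higher at E10 than at E7 (1.03%) and 110 lower (0.286%). Of the 2682 probe sets higher at E14 than at E5, 281 were also higher at E10 than at E7 (10.5%) and 4 lower (0.149%), and of the 2382 probe sets lower at E14, 66 were lower at E10 (2.77%) and 2 higher (0.084%). The mean at E10 was above that at E7 in 82.7% of the first group and 17.2% of the second, against 40.1% of all probe sets, and the median log2 fold changes, E10 over E7, were 0.64, -0.40 and -0.19. The 12 arrays share 1 model and its estimate of spread, so that a probe set with a low spread is more readily called in both comparisons. The shares over all probe sets also count dim ones. Of those with the higher stage mean under 20, 0.688% were called between E14 and E5. Shares among probe sets of like brightness and spread were not computed. By HINTW, hens were more frequent at E10 than at E7, as they were at E14 than at E5. The part of sex in this reading was not tested. Without E7 replicate 3, the array that stood apart, 96 of the lower probe sets were also lower at E10 than at E7 (4.03%) and 0 higher, and the 3 medians were 0.69, -0.54 and -0.02.

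**Figure D5:**
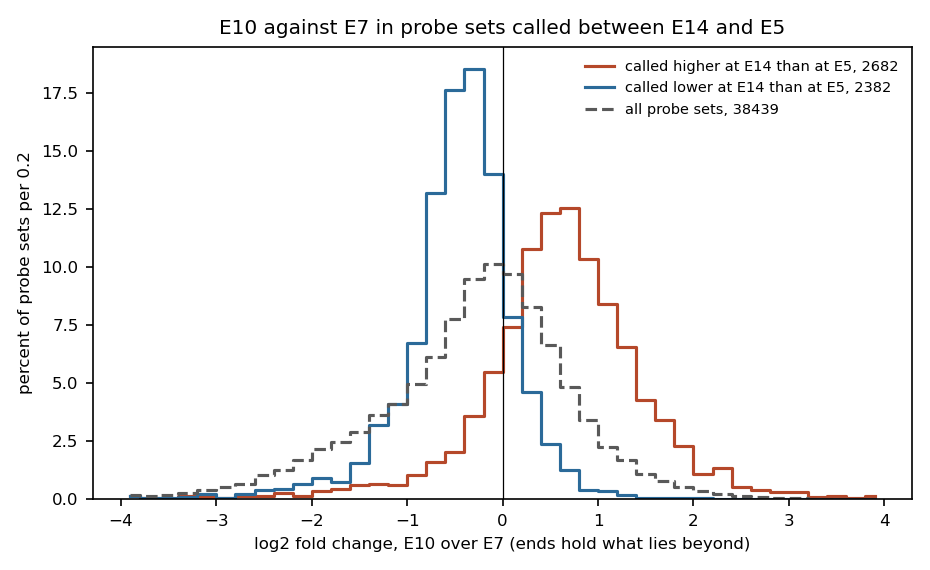
Distributions of the log2 fold change, E10 over E7, for the probe sets called higher at E14 than at E5, for those called lower and for all probe sets. The higher group centers at 0.64 and the lower group at -0.40, on either side of the median of all probe sets at -0.19.

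Some genes had a clear signal at E14 and were near absent at E5. With every E5 signal under 20 and every E14 signal over 100, 43 probe sets of 32 named genes counted as on at E14, among them RHAG, CLEC3B, SLC15A1, LAMA3, JAM2, IRF1 and RHCG, described above. The opposite, every E14 signal under 20 and every E5 signal over 100, held for 10 probe sets of 8 named genes, among them SST1 and DACT2. CFD, the complement protease factor D, was singled out after its values were seen, with 626, 203 and 648 at E14 and 7.59, 6.12 and 4.69 at E5 (log2 fold change 6.18, SE 0.52, adjusted p = 1.66e-07). With limits of 35 and 200 the counts were 50 and 5.

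Several probe sets of a gene mostly moved together. Of 707 genes with 2 or more called probe sets, 693 had them in 1 direction and 14 in opposite directions. In TXNDC5, a protein folding enzyme of the endoplasmic reticulum, one probe set averaged 68.2 at E14 and 4.19 at E5 (adjusted p = 0.000104) and another 783 at E14 and 1919 at E5 (adjusted p = 0.000831, and 0.172 with the actin ratio as a covariate). SSR1, a part of the translocon complex, averaged 1193 at E14 and 592 at E5 by one probe set (adjusted p = 0.00246) and 286 at E14 and 628 at E5 by another (adjusted p = 0.000966). CSNK1G1, a casein kinase, averaged 112 at E14 and 36.2 at E5 by one probe set (adjusted p = 0.00896) and 65.1 at E14 and 202 at E5 by another (adjusted p = 0.000209). Which part of the transcript each probe set reads was not examined. The other genes with such splits were ATF2, ATG2A, BG8, CASK, FBXO22, KIF1B, LGALS1B, MRPS27, POLDIP2, RBL1 and TUBD1. No direction is given for these 14 genes as a whole.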

How the data were processed

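Total RNA of 12 whole CAMs, 3 each at E5, E7, E10 and E14, was hybridized to 1 array each. The deposited values are signal intensities from the authors' GCOS 1.2 software with default settings and global scaling to a trimmed mean of 100, linear and without detection calls. Scaling to 1 mean per array fixes its total, so that a shift shared by most transcripts cannot be seen. The study's SAM test was replaced by limma 3.58.1 in R 4.3.3, since 3 against 3 arrays leave a rank statistic few values. Log2 intensities of 38439 probe sets entered 1 model (lmFit, then eBayes with an intensity trend), with no filter and no offset, and p-values were adjusted by Benjamini-Hochberg. Levels are given per CAM (n = 3 per stage).

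Of the probe sets, 27168 had 1 gene symbol in the platform annotation of 2016, 177 had several and 11094 none. The deposited table pairs probe sets with no names of its own. The gene ID matched a RefSeq entry for 26853, and where a gene had several probe sets, the brightest by mean log2 signal stood for it in the lists.

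The members and gene lists were chosen with earlier results of these data known. Genes were taken for naming by a rule, the 15 largest changes in each direction (signals under 20 set to 20, called, mean of at least 100 at the higher stage, no overlap), up to 5 called members per list and direction, all hemoglobin subunits, W-linked genes and cell type markers, and genes with opposed probe sets. Not all of them are described above. The markers MYH11 and DES of smooth muscle and TP63 of epithelium rose (log2 fold changes 1.87, 2.93 and 1.89). Their calls were lost with the actin ratio as a covariate (adjusted p = 0.141, 0.357 and 0.128). The W-linked UBE2R2L was not called. On simulated data for E14 against E5 over 38439 probe sets, 49 of 100 changes of 3-fold and 86 of 100 of 6-fold were found, with 6 false among 141 calls. The changed probe sets were drawn only from those with a signal of at least 35 at the best stage. Noise was normal and independent, with no effect of array or RNA state, so these rates do not cover dimmer probe sets or such effects. The median SE was 0.68. Alternatives were other filters, offsets, scalings, eBayes settings, array sets and covariates, and leaving out each array. The number of arrays limits the precision.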

Additional observations from a re-analysis of the deposited data

How the results depend on the processing

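Under 21 alternatives the higher count stayed within 1.5 times of 2682 except with a signal of at least 100 at the best stage (1720), equal medians (1579), a fold over 4 (1197), treat against a fold of 2 (569) and the actin ratio as a covariate (1574). The lower count, 2382, left that range with a fold over 4 (697), treat (298) and the actin ratio (1062). The actin ratio and leaving out E7 replicate 3 in E10 against E7 were alternatives chosen after seeing the data. With the latter, 0 of the probe sets lower at E14 were higher at E10 than at E7. Leaving out each array of E14 or E5 gave 2196 to 2397 higher and 1930 to 2448 lower. With limits of 35 and 200, 5 probe sets were near absent at E14 and high at E5. The causes were not tested. Of the named genes AQP3 lost its fall with the actin ratio (0.00447, adjusted p = 0.997). Of 292 named results, 102 no longer passed and 1 newly passed with the actin ratio. With eBayes without trend 41 no longer passed, with equal medians 30 and with quantile normalization 8. Of 268 called probe sets, 150 kept their call under every alternative but the stricter folds. With the mean over probe sets in place of the brightest, list medians moved by up to 0.54 and 1 list changed sign. Replicate numbers did not pair the arrays (correlations of -0.0138, -0.000839 and 0.00793 between same-numbered arrays). The replicate block gave 2692 higher and 2367 lower. Dim probe sets limit the comparison, since 13079 of them had both stage means under 20.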
